A study of Mus musculus with 4 samples.

Results

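NODAL is a secreted signal of the transforming growth factor beta family. It is made as a precursor and cut to its active form by the convertases FURIN and PCSK6, which in the egg cylinder come largely from the extraembryonic ectoderm. It binds the receptors ACVR1B and ACVR2B together with the co-receptor TDGF1 (Cripto), and the receptors then phosphorylate SMAD2 and SMAD3, which act with the DNA-binding factor FOXH1. Targets of the pathway include Nodal itself and the inhibitors Lefty1 and Lefty2, so the pathway feeds back on itself in both directions. Around implantation NODAL keeps the epiblast pluripotent and patterns the visceral endoderm that surrounds it.

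The genes described are Nodal, Gdf3, Tdgf1, Lefty2, Furin, Pcsk6, Acvr1b, Acvr2b, Smad2 and Foxh1. They were chosen by name as ligands, co-receptor, inhibitor, convertases, receptors and effectors. All 10 were found among the 47885 rows of the deposited count table, and all 10 passed the filter on low counts in both groups. Each library came from a single whole mouse embryo of embryonic day 5.5 (background C57BL/6). The groups were 2 embryos labelled Mettl14+/+ (WT) and 2 labelled Mettl14-/- (KO). METTL14 is the RNA-binding partner of METTL3, the enzyme that places N6-methyladenosine (m6A) on RNA. The genotype was assigned by qPCR for Mettl14 on the amplified cDNA of the same embryo, so the expressing embryos may not all be homozygous wild type. The deleted part of the gene, and whether any embryos were littermates, were not stated in the labels.

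Libraries held 16108062 to 28698541 counts. Values are given as CPM, read counts scaled to the library size, after TMM scaling, which adjusts library sizes for composition. Mettl14 stood at 34.0 and 31.6 CPM in WT and at 4.63 and 8.04 CPM in KO, levels that are no independent check since the embryos were classed by this mRNA. KO was tested against WT with edgeR's quasi-likelihood test over 15563 genes, and a gene was called at a Benjamini-Hochberg adjusted p under 0.05. In that test 0% of genes were called higher and 0% lower. At an unadjusted p under 0.05 the shares were 4.74% higher and 3.08% lower, and DESeq2 called 0.964% higher and 0.578% lower. KO replicate 2 was the library least like WT replicate 1 (Pearson correlation of log2 CPM 0.879, against 0.943 between the WT embryos). With 1 library left out edgeR called 0.102% higher and 0.157% lower (without WT replicate 1), 0.0818% and 0.00584% (without WT replicate 2), 0.792% and 1.25% (without KO replicate 1), or 0.351% and 0.0951% (without KO replicate 2). The shares were 0.334% and 0.122% with the replicate number as a block, 0.619% and 0.398% with no low-count filter, and 0.186% and 0.0707% with libraries scaled to epiblast markers.

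Because METTL14 acts on RNA, the GGACT core of the m6A motif (GGACU in RNA) was counted on the sense strand of the longest coding transcript of each gene in GENCODE M21. All 10 genes held at least 1 match, against 7.84% of 13224 tested genes with none. Nodal held 4 matches (1.91 per kilobase), Pcsk6 8 (1.82) and Tdgf1 3 (1.55), above the upper quartile of 1.53 over the tested genes. Furin held 3 in a longer transcript than that of Tdgf1 (0.693 per kilobase), between the lower quartile of 0.637 and the median of 1.05. The median of the 10 genes was 1.08 per kilobase, near that over the tested genes. A match is only a run of letters, since m6A itself was not measured. The match nearest the end of the coding sequence is shown for 4 genes, with GGACT in capitals. They are the ligands, the co-receptor and Furin, the convertase gene with the widest separation between the groups.
Nodal: ttccaggtGGACTtcaacctg
Tdgf1: agcatccgGGACTccgtgtca
Gdf3: tagtctcgGGACTaggctagg
Furin: tgcccatcGGACTcagaggag

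On GRCm38 (mm10) these windows lie at chr10:61423560-61423580 on the plus strand for Nodal, chr9:110940771-110940791 on the minus strand for Tdgf1, chr6:122606288-122606308 on the minus strand for Gdf3 and chr7:80390761-80390781 on the minus strand for Furin. The matches of Nodal, Tdgf1 and Furin lie within the coding sequence, 279, 76 and 63 bases before its last base, counted to the first base of the match. That of Gdf3 lies 9 bases after it, in the 3′ UTR.

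None of the 10 genes passed the edgeR, DESeq2 or limma-voom threshold, and none was called under any of these other settings. By limma-voom 0% of all tested genes were called in either direction. The ligands, the co-receptor, SMAD2 and FOXH1 overlapped between the genotypes, and the convertase gene Furin showed the widest separation among them. Both KO embryos lay above both WT embryos for 2 of the 10 genes, Furin and Acvr2b, where 19.4% of all tested genes did so. Both lay below for 1, Acvr1b, where 18.8% of all tested genes did so. The median log2 fold change of the 10 genes was 0.32, beside -0.03 over all tested genes, and 7 of the 10 were positive where 47.7% of all tested genes were positive and 52.3% negative. At an unadjusted edgeR p under 0.05, 1 of the 10 was higher (Furin) and 0 were lower, where 4.74% and 3.08% of all tested genes were. Without WT replicate 1 the median was -0.071.

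**Figure D1:**
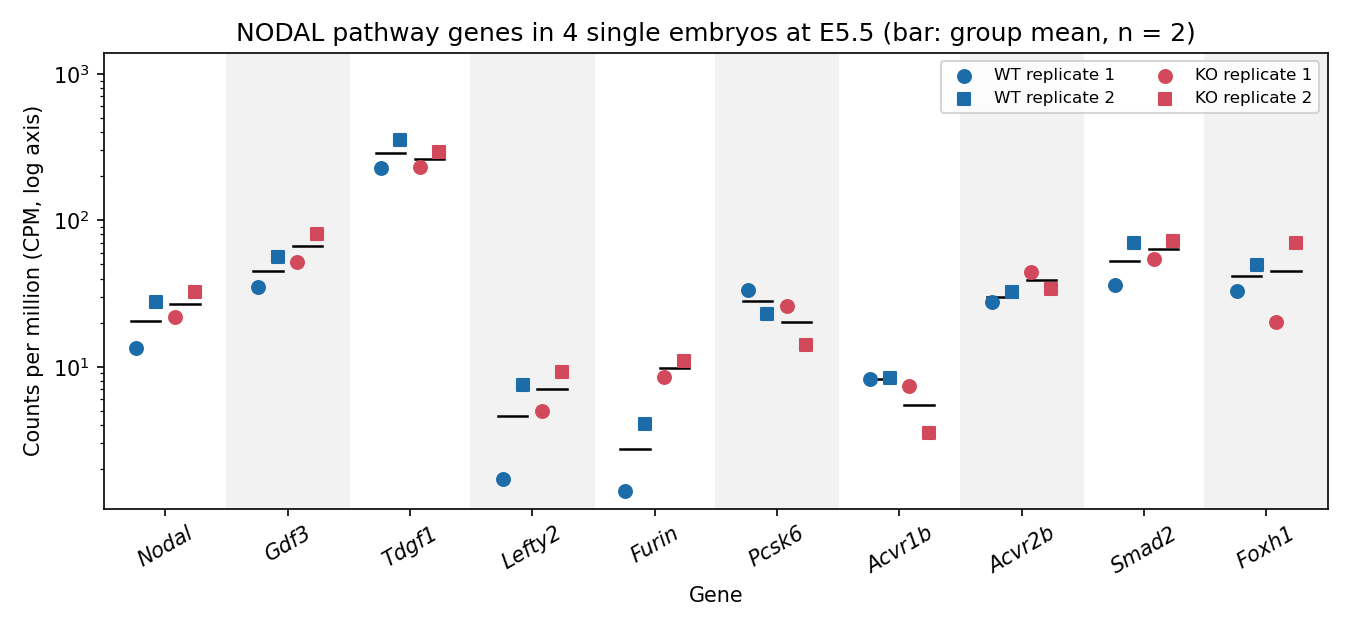
CPM (log axis) of the 10 NODAL pathway genes in each embryo, circles for replicate 1 and squares for replicate 2, WT in blue and KO in red, with a bar at each group mean (n = 2). The KO embryos sit above both WT embryos for Furin (8.55 and 10.98 against 1.41 and 4.06 CPM), while the groups overlap for Nodal, Gdf3, Tdgf1, Lefty2, Pcsk6, Smad2 and Foxh1.

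Nodal (chromosome 10, 61417972 to 61425338 on mm10, plus strand) was read 229 and 520 times in the WT embryos (replicates 1 and 2, an order kept throughout) and 462 and 897 times in the KO embryos. These counts were 13.5 and 27.8 CPM in WT and 21.8 and 32.2 CPM in KO. WT replicate 1 was the lowest of the 4 embryos, and WT replicate 2 lay between the KO embryos. The log2 fold change of KO over WT was 0.39 (SE 0.47, 95% interval -0.69 to 1.47, n = 2 per group, edgeR adjusted p = 0.921), an interval that spans 0.618-fold to 2.77-fold. Both a lower and a higher Nodal level in KO therefore lie within the error of these 4 embryos. Without WT replicate 1 the log2 fold change was -0.014, and without WT replicate 2 it was 1.01.

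Gdf3 (chromosome 6, 122605403 to 122610087, minus strand) encodes a ligand related to NODAL that signals through the same co-receptor. It stood at 34.8 and 55.7 CPM in WT and at 52.2 and 80.8 CPM in KO. As for Nodal, WT replicate 1 was lowest and KO replicate 2 highest. The log2 fold change was 0.55 (SE 0.40, 95% interval -0.36 to 1.47, edgeR adjusted p = 0.832). Over the 4 embryos the ratio of Nodal to Gdf3, per length, stayed between 0.449 and 0.577 (levels per length are RPKM, CPM per kilobase of exon).

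Tdgf1 (chromosome 9, 110939603 to 110946158, minus strand) had the highest level of the 10 genes. Its co-receptor binds NODAL and brings it to ACVR1B. It stood at 229 and 351 CPM in WT and at 230.3 and 295 CPM in KO. Both KO embryos lay within the WT range. The log2 fold change was -0.14 (SE 0.33, 95% interval -0.89 to 0.60, edgeR adjusted p = 0.969), the narrowest interval of the 10 genes. The ratio of Tdgf1 to Nodal, per length, was 13.5 and 10.1 in WT and 8.44 and 7.32 in KO, so the groups did not overlap in this ratio. It is 1 of 8 such ratios, chosen after the values of the genes were known, of which 4 did not overlap. Of the windows of 100 bases in the Tdgf1 transcript 4.69% also occur in the processed pseudogene Tdgf1-ps1, which was given 0 counts in 3 of the libraries and 1 in KO replicate 2. The other co-receptor gene, Cfc1 (Cryptic), had 2.24 and 6.41 CPM in WT and 0.803 and 1.79 CPM in KO. Its log2 fold change was -1.73 (SE 0.84, edgeR adjusted p = 0.698), and its exons overlap those of Prss40 on the opposite strand over 289 bases.

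Lefty2 (chromosome 1, 180893108 to 180899103, plus strand), a secreted inhibitor that the pathway induces, had group means closer together than the embryos within WT. Its level was 1.71 and 7.48 CPM in WT (29 and 140 counts) and 5.004 and 9.19 CPM in KO (106 and 256 counts). WT replicate 1 stood apart below the other 3 embryos. KO differed from WT by 0.63 on the log2 scale (SE 0.75, 95% interval -1.10 to 2.35, edgeR adjusted p = 0.920). This value ran from -0.042 without WT replicate 1 to 2.06 without WT replicate 2. Lefty1, the inhibitor made in the distal and anterior visceral endoderm, had 9.37 and 13.7 CPM in WT and 10.7 and 17.7 CPM in KO (log2 fold change 0.29, SE 0.48, edgeR adjusted p = 0.944). The transcripts of both genes share 73 windows of 100 bases, 4.80% of Lefty1 and 3.07% of Lefty2, so some reads could be credited to either. Their summed level was 5.99 and 10.7 RPKM in WT and 7.99 and 13.6 RPKM in KO, and the groups overlapped.

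Cer1, a secreted antagonist of NODAL and BMP from the anterior visceral endoderm, had 6.66 and 15.8 CPM in WT and 0 and 1.26 CPM in KO, so both KO embryos lay below both WT embryos. Its log2 fold change was -4.11 (SE 1.28, edgeR adjusted p = 0.488). edgeR called it lower with no low-count filter (adjusted p = 3.8e-05) and without KO replicate 1 (0.0408) or KO replicate 2 (0.00126), while DESeq2 gave an adjusted p of 0.747. The gene passed the low-count filter in both WT libraries and in 1 of the KO libraries. The ratio of Cer1 to Nodal, per length, was 0.594 and 0.686 in WT and 0 and 0.0470 in KO.

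The convertase gene Furin (chromosome 7, 80388585 to 80405436, minus strand) had 24 and 76 counts in the WT embryos against 181 and 306 in the KO embryos. These were 1.41 and 4.06 CPM in WT and 8.55 and 10.98 CPM in KO. Exons of Furin overlap those of Gm44851 on the opposite strand over 118 of their 9178 bases. Both KO embryos lay above both WT embryos, and the WT embryos themselves differed by more, as a ratio, than the KO embryos did. Its log2 fold change was 1.83 (SE 0.65, 95% interval 0.34 to 3.32, n = 2 per group), or 3.55-fold, with an unadjusted edgeR p of 0.0218 and an adjusted p of 0.528. The adjusted p by DESeq2 was 0.241 and by limma-voom 0.567. Leaving out 1 library moved the log2 fold change from 1.29 (without WT replicate 1) to 2.79 (without WT replicate 2), with the lowest adjusted p at 0.140 without KO replicate 1.

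Furin has 2 start sites in the RefSeq promoter table (GRCm38.p6), and counts per gene cannot tell which was used. The 250 bases before each start are shown because Furin is the one of the 10 genes whose 95% interval lay clear of 0. GC boxes (GGGCGG or its reverse complement CCGCCC) and TATA matches (TATAAA or TTTATA) are in capitals, and each sequence reads 5′ to 3′ on the minus strand. The first lies at chr7:80405437-80405686 and the second at chr7:80402813-80403062, and 0 of their bases fall in annotated Furin exons.
Furin upstream start: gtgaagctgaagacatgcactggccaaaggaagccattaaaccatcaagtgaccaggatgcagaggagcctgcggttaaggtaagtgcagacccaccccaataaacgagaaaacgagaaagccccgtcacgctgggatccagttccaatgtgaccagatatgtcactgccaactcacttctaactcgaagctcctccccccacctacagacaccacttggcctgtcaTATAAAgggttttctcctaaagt
Furin downstream start: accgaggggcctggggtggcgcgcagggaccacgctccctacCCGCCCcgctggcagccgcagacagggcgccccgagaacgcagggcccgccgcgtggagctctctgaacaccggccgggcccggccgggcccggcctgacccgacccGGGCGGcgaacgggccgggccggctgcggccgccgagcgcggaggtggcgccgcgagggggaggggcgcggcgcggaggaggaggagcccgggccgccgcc

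The upstream window was 50.4% G and C with 1 TATA match. The downstream one was 83.2% G and C with 2 GC boxes, against a median of 52.4% over 32851 windows of the same length. A GC box occurred in 32.7% and a TATA match in 12.4% of all windows. The windows of 6 of the 10 genes were in the table, 7 windows in all, and 5 of them held a GC box. The sequence AATCCACA or its reverse complement TGTGGATT, which FOXH1 can bind, occurred in 0 of these 7 and in 0.718% of all windows. At so low a share, 7 windows are too few for a 0 to tell anything about these genes. Lefty2, Gdf3, Smad2 and Foxh1 had no window.

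Pcsk6 (PACE4; chromosome 7, 65861734 to 66050386, plus strand) is the other convertase known to act on NODAL in the early embryo. It had 33.2 and 22.8 CPM in WT and 26.1 and 14.2 CPM in KO. The groups overlapped, with KO replicate 2 lowest. The log2 fold change was -0.48 (SE 0.45, 95% interval -1.51 to 0.56, edgeR adjusted p = 0.886). Exons of Pcsk6 overlap those of Gm45213 on the same strand over 156 bases, and Gm45213 was given 0 counts in each library. The ratio of Furin to Pcsk6, per length, was 0.0241 and 0.101 in WT and 0.185 and 0.438 in KO. Pcsk6 was thus the higher of these convertase genes in each of the 4 embryos. Their summed level was 6.55 and 4.83 RPKM in WT and 5.95 and 3.93 RPKM in KO, which overlapped.

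Among other convertase genes, Pcsk5 had 3 and 1 counts in the WT embryos against 19 and 42 in the KO embryos. It passed the low-count filter through the KO libraries alone, so its log2 fold change of 3.33 (SE 1.43, edgeR adjusted p = 0.629) is not support for a difference. Pcsk7 had 2.06 and 7.27 CPM in WT and 4.58 and 6.85 CPM in KO, which overlapped. Exons of Pcsk7 overlap Rnf214 over 415 bases on the opposite strand.

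Of the receptors, Acvr2b (chromosome 9, 119402118 to 119434995, plus strand), a type II receptor, had 27.7 and 32.2 CPM in WT and 44.7 and 33.9 CPM in KO. The KO embryos lay just above the WT embryos, with KO replicate 2 close to WT replicate 2. On the log2 scale the difference was 0.39 (SE 0.37, 95% interval -0.45 to 1.24, edgeR adjusted p = 0.885). Acvr1b (ALK4; chromosome 15, 101174067 to 101213684, plus strand), the type I receptor that carries the kinase acting on SMAD2, had 8.25 and 8.34 CPM in WT and 7.41 and 3.55 CPM in KO. The WT embryos were nearly equal and KO replicate 2 was lowest. KO differed from WT by -0.60 on the log2 scale (SE 0.56, 95% interval -1.88 to 0.68, edgeR adjusted p = 0.883). It was -0.15 without KO replicate 2.

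The other receptor genes tested overlapped between the groups. Acvr2a, the second activin type II receptor, had a log2 fold change of -0.22 (SE 0.49), and the type I receptor gene Tgfbr1 one of -0.11 (SE 0.46). Acvr1c, which encodes the type I receptor ALK7, had 0 counts in all 4 libraries, which allows up to 0.0841 CPM in WT and 0.0612 CPM in KO (3 counts over a group, counting error only).

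Smad2 (chromosome 18, 76241580 to 76310963, plus strand), the signal transducer phosphorylated by the receptors, had 36.3 and 69.9 CPM in WT and 54.6 and 72.6 CPM in KO. The order of the embryos was that of Nodal, with WT replicate 1 lowest. Its log2 fold change was 0.26 (SE 0.41, 95% interval -0.69 to 1.21, edgeR adjusted p = 0.943). Foxh1 (chromosome 15, 76668225 to 76669948, minus strand), the DNA-binding partner of SMAD2, had 33.0 and 49.7 CPM in WT and 20.1 and 69.6 CPM in KO. The KO embryos enclosed the WT range from both sides. Its log2 fold change was 0.12 (SE 0.57, 95% interval -1.19 to 1.42, edgeR adjusted p = 0.986), and it went from -1.04 to 0.83 as single libraries were left out. Smad4, the shared partner of the receptor SMADs, differed by -0.07 (SE 0.35) and Smad3 by -0.51 (SE 0.50), on the log2 scale.

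Levels of different genes were compared per length, as RPKM over the union of annotated exons. In WT the order by mean was Tdgf1 (87.3 and 134 RPKM), Foxh1 (24.2 and 36.4), Gdf3 (14.4 and 23.0), Nodal (6.44 and 13.3), Acvr2b (7.05 and 8.19), Smad2 (4.14 and 7.97), Pcsk6 (6.40 and 4.39), Acvr1b (1.87 and 1.89), Lefty2 (0.655 and 2.87) and Furin (0.154 and 0.442). The ranges of Nodal, Acvr2b and Smad2 each overlapped that of the next gene in the order, as did that of Acvr1b, so these neighbours were not separated by 2 embryos. In KO the first 7 places were the same, with Furin still last at 0.931 and 1.196 RPKM and Lefty2 above Acvr1b. There the ranges of Foxh1 and Gdf3, Nodal and Acvr2b, Pcsk6 and Lefty2, and Acvr1b and Furin overlapped. With the longest annotated transcript as the length, Furin stood above Acvr1b in KO (1.70 against 1.24 RPKM on average).

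**Figure D2:**
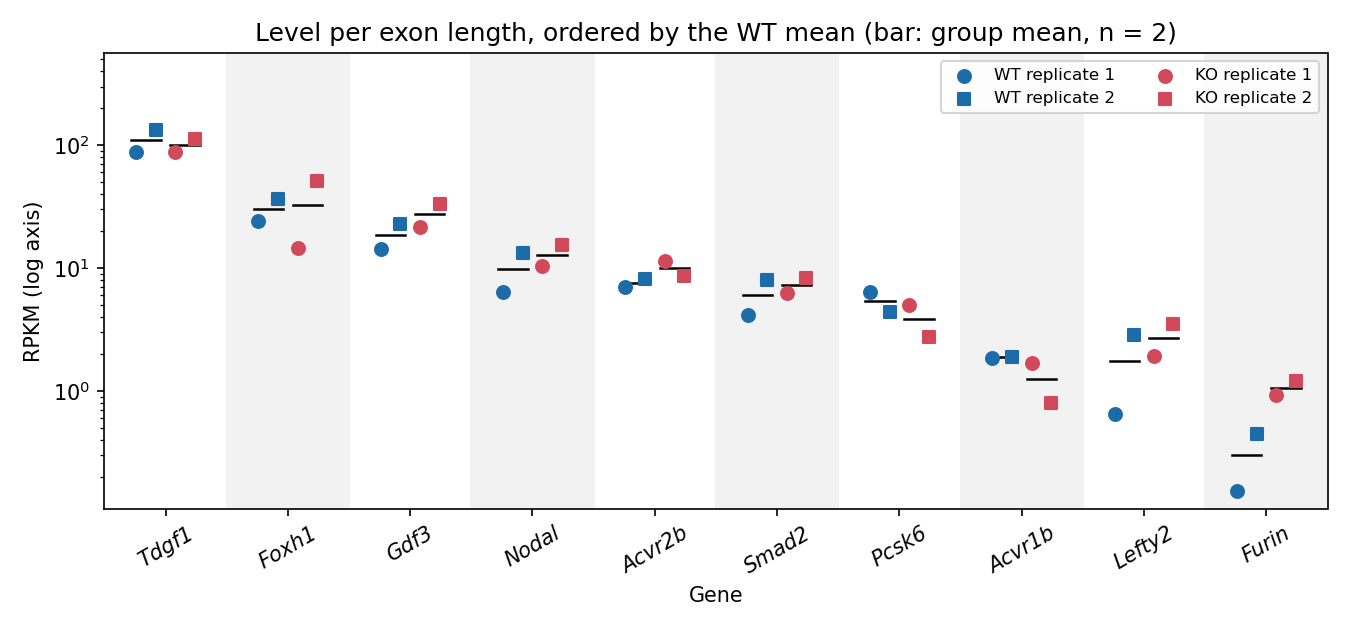
RPKM (log axis) of the 10 genes in each embryo, ordered by the WT mean, with circles for replicate 1, squares for replicate 2, WT in blue, KO in red and a bar at each group mean (n = 2). Tdgf1 lies highest in all 4 embryos, and Furin is last in the WT order at 0.154 and 0.442 RPKM.

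Likeness to Nodal was measured as the Euclidean distance between log2 CPM values centred on each gene's mean over the 4 libraries. The 5 named coding genes nearest to Nodal of 12840 ranked were Dapk3, Bysl, Mkrn2, Galm and Cnot8, at distances of 0.0843 to 0.0973. Galm, for example, had 10.7 and 22.0 CPM in WT and 17.5 and 27.7 CPM in KO. Such closeness was not rare over 4 libraries, since 78 genes lay within 0.25 and 799 within 0.5. Among the 10 genes Smad2 was nearest (distance 0.179, rank 23), then Gdf3 (0.280, rank 123), and Acvr1b and Pcsk6 were farthest (1.76 and 1.79, ranks 9903 and 10032).

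The rest of the pathway was described from 28 further genes in the table, of which 26 were tested. None passed the edgeR threshold. Both KO embryos lay above both WT embryos for 2 of the 26, Pcsk5 and Tgif1, and below for 7, of which 5 were target genes. Over all tested genes these shares were 19.4% above and 18.8% below. The median log2 fold change of the 26 was -0.085, beside -0.03 over all tested genes, and Cer1 and Pcsk5 entered it mainly through the group in which they were high. DESeq2 called 2 of them lower, Lhx1 and Cyp26a1, where it called 0.578% of all tested genes lower.

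**Figure D3:**
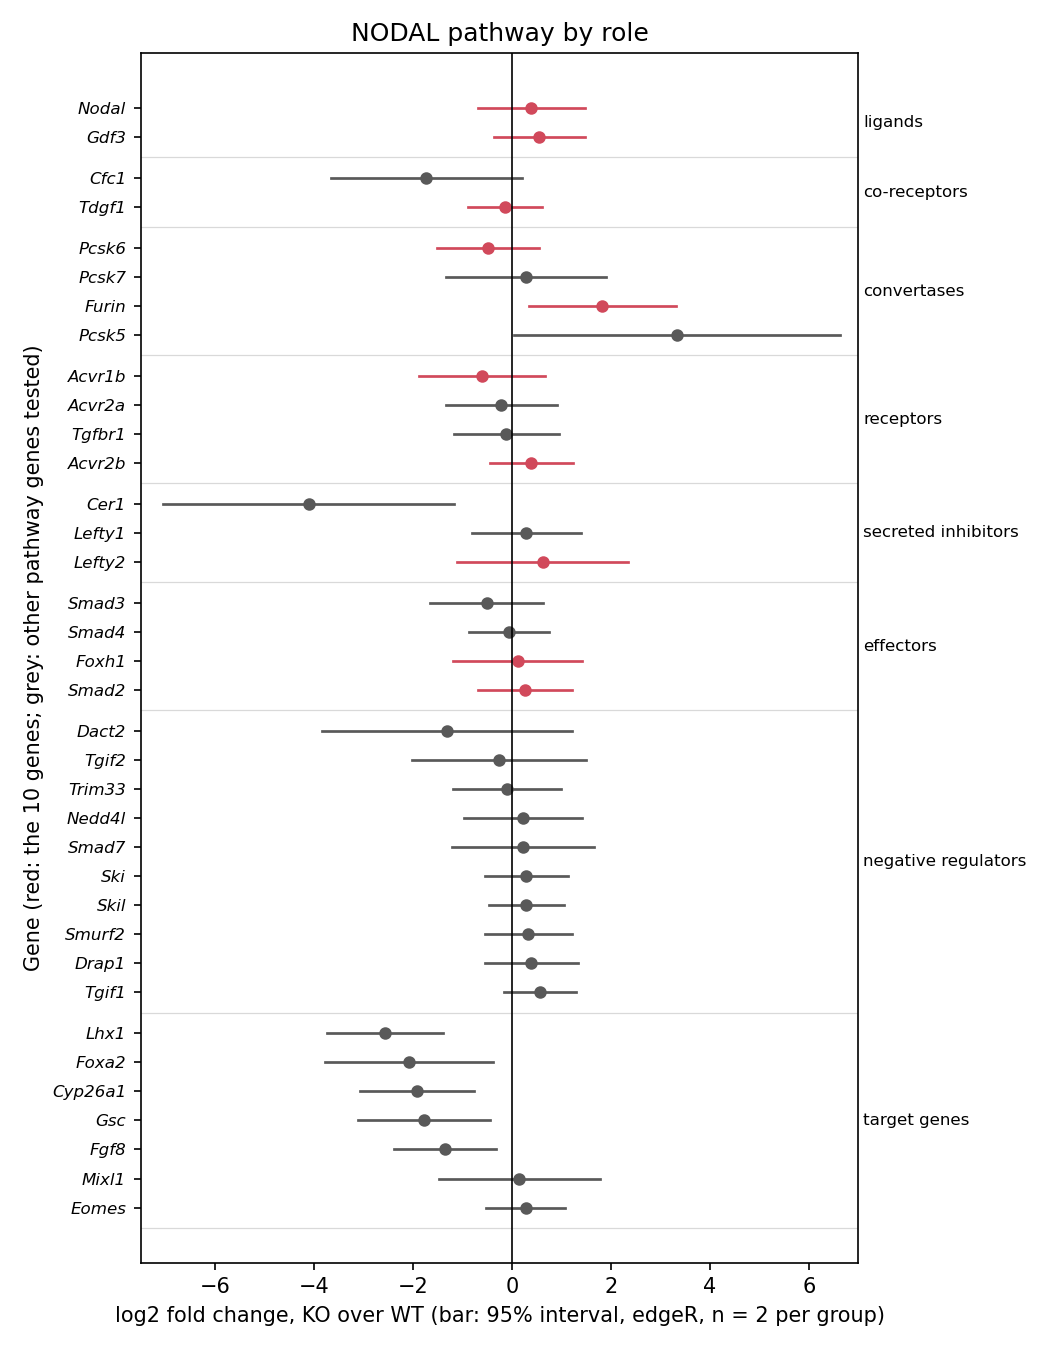
Log2 fold change of KO over WT (horizontal axis, log2 units) with its 95% interval from edgeR (n = 2 per group) for the 10 genes in red and the 26 other tested pathway genes in grey, grouped by role. Among the 10 genes only the interval of Furin (0.34 to 3.32) lies clear of 0, and 5 of the 7 target genes tested lie wholly below 0. Of all tested genes 4.74% were higher and 3.08% lower at an unadjusted edgeR p under 0.05.

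Of the 7 target genes tested, 5 were lower in both KO embryos than in both WT embryos, where 18.8% of all tested genes were. The same 5 were lower at an unadjusted edgeR p under 0.05, where 3.08% of all tested genes were. They were Gsc, Lhx1, Fgf8, Foxa2 and Cyp26a1, and their sign held under all 12 alternative settings. These settings reuse the same embryos, whose groups did not overlap for these genes, so a kept sign is little further support. The pathway list was chosen with earlier results of these data known, so counts over it are no independent support. Lhx1, a LIM homeobox factor of the anterior visceral endoderm and later streak, had 20.3 and 22.3 CPM in WT and 2.46 and 4.74 CPM in KO (log2 fold change -2.56, SE 0.51, edgeR adjusted p = 0.274, DESeq2 adjusted p = 0.000922). Cyp26a1, which degrades retinoic acid, had 98.0 and 182 CPM in WT and 52.2 and 22.2 CPM in KO (log2 fold change -1.92, SE 0.50, edgeR adjusted p = 0.386, DESeq2 adjusted p = 0.00659). These were the only target genes that DESeq2 called. Both also passed the edgeR threshold with no low-count filter (adjusted p = 0.00138 for Lhx1 and 0.00063 for Cyp26a1). Lhx1 passed it without KO replicate 2 (adjusted p = 0.0374), and Cyp26a1 without WT replicate 1 (0.0382) or KO replicate 1 (0.0226).

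Foxa2, a forkhead factor of endoderm, had 6.48 and 9.30 CPM in WT and 0.803 and 2.91 CPM in KO (log2 fold change -2.08, SE 0.74). Gsc, a homeobox gene of the organizer, differed by -1.78 (SE 0.58) and the growth factor gene Fgf8 by -1.35 (SE 0.45), on the log2 scale. The edgeR adjusted p of these 3 genes was between 0.506 and 0.528, and the groups overlapped for none of them.

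Eomes and Mixl1 did not share that pattern. Eomes, a T-box factor of trophoblast and epiblast, had 193 and 241 CPM in WT and 332 and 193 CPM in KO (log2 fold change 0.27, SE 0.35). Mixl1, a homeobox gene of the primitive streak, had 1.89 and 4.81 CPM in WT and 4.49 and 2.98 CPM in KO (0.15, SE 0.71). The T-box gene T (Brachyury) had 40 and 2 counts in the WT embryos against 8 and 0 in the KO embryos and did not pass the low-count filter.

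**Figure D4:**
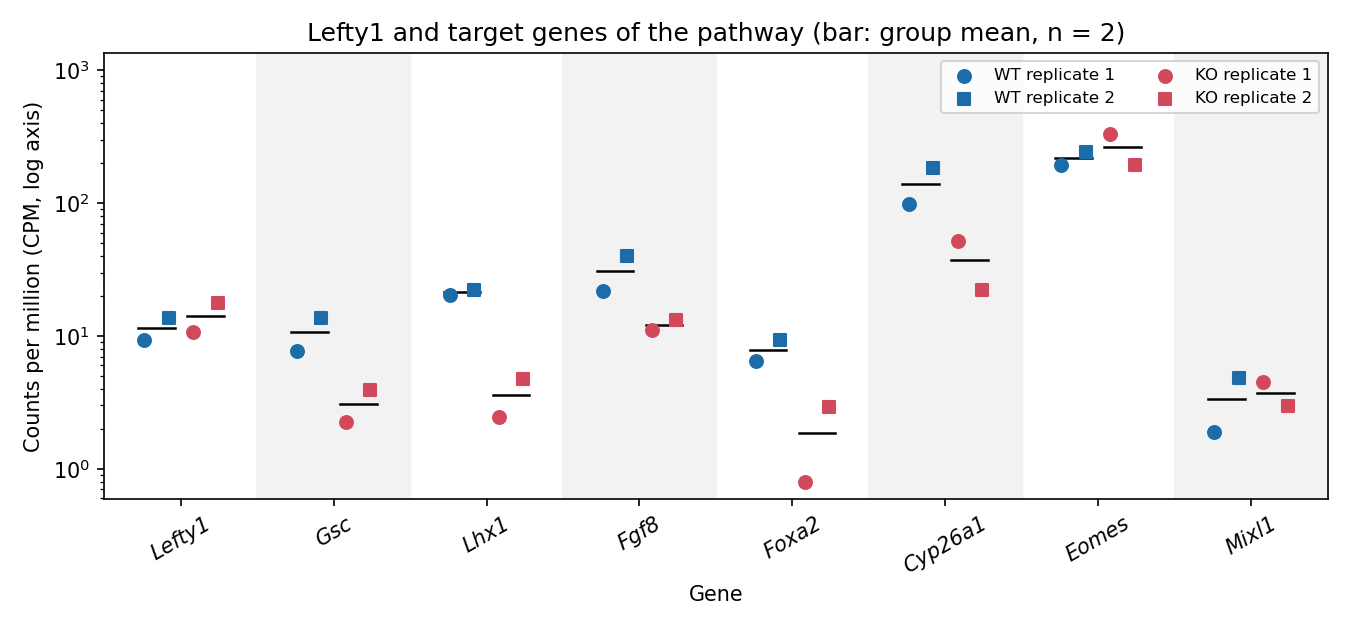
CPM (log axis) of Lefty1 and 7 target genes in each embryo, circles for replicate 1, squares for replicate 2, WT in blue, KO in red, bars at group means (n = 2). The KO embryos sit below the WT embryos for Gsc, Lhx1, Fgf8, Foxa2 and Cyp26a1, and the groups overlap for Lefty1, Eomes and Mixl1.

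Of 10 negative regulators, which act on SMADs or their partners in the nucleus or limit receptors, 7 had positive and 3 negative fold changes, where 47.7% of all tested genes were positive. Both KO embryos lay above both WT embryos for 1 of the 10 and below for 0, against 19.4% and 18.8% of all tested genes. Tgif1, a homeobox corepressor of SMAD2, had 147 and 122 CPM in WT and 173 and 226 CPM in KO (log2 fold change 0.57, SE 0.31, edgeR adjusted p = 0.755). The corepressor genes Ski and Skil each differed by 0.29 on the log2 scale, and the ubiquitin ligase gene Smurf2 by 0.33. Smad7, an inhibitory SMAD, had 43.7 and 30.9 CPM in WT and 71.4 and 16.1 CPM in KO, so that the KO embryos lay on either side of the WT embryos. Drap1, Nedd4l, Trim33, Tgif2 and Dact2 differed by 0.40, 0.23, -0.10, -0.26 and -1.31. Dact2 was low in each embryo (0.943 and 2.40 CPM in WT, 0.991 and 0.359 CPM in KO), and its groups overlapped. Of the windows of 100 bases in Tgif2, 15.1% also occur in the pseudogene Tgif2-ps2. Exons of Tgif2 overlap 5430405H02Rik on the opposite strand over 2171 of their 3832 bases.

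The libraries hold whole embryos, so fewer cells of a type and less RNA per cell cannot be told apart. The summed CPM of 10 epiblast markers was 3238 and 3196 in WT and 2289 and 4287 in KO, with the KO embryos on either side. That of 10 visceral endoderm markers was 850.2 and 2145 in WT and 352 and 412 in KO, and 9 of the 10 were lower in both KO embryos than in both WT embryos, against 18.8% of all tested genes. DESeq2 called 7 of these 10 lower, against 0.578% of all tested genes. The marker lists were chosen with earlier results of these data known, so counts over them are no independent support. The 6 markers of distal and anterior visceral endoderm summed to 151 and 203 in WT and to 56.6 and 84.1 in KO, with 4 of the 6 lower in both KO embryos (18.8% of all tested genes). In these 3 lists no marker was at 0 in any library. The part of the visceral endoderm in the lower values of Cer1, Lhx1, Foxa2, Gsc and Cyp26a1 was not tested.

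Per 1000 CPM of visceral endoderm markers, Lhx1 stood at 23.9 and 10.4 CPM in WT against 6.97 and 11.5 in KO, which overlapped. Gsc had 9.08 and 6.35 in WT and 6.44 and 9.49 in KO, and Foxa2 and Cyp26a1 overlapped on this scale as well. Cer1 did not, with 7.84 and 7.38 in WT and 0 and 3.05 in KO. Fgf8 was higher in both KO embryos on this scale (31.2 and 32.0 against 25.7 and 18.6), but lower in both per 1000 CPM of epiblast markers (4.81 and 3.07 against 6.76 and 12.5). Of the epiblast genes, Gdf3 was higher in both KO embryos per 1000 CPM of epiblast markers (22.8 and 18.8 against 10.7 and 17.4), while Nodal, Tdgf1, Lefty2 and Foxh1 overlapped. In CPM alone Gdf3 overlapped too. These levels per marker list were computed after the values were seen. In CPM, 19.4% of all tested genes were higher and 18.8% lower in both KO embryos, so a separation on such a scale is little support for a difference.

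Extraembryonic ectoderm markers, 8 genes, summed to 513 and 564 in WT and 835 and 512 in KO, with 1 of the 8 higher and 1 lower in both KO embryos (19.4% and 18.8% of all tested genes). Ectoplacental cone and giant cell markers, 6 genes, summed to 374 and 575 in WT and 1833 and 1039 in KO, and 5 of the 6 were higher in both KO embryos (19.4% of all tested genes). Among them Prl2c2 was at 0 in all libraries and Prl3d1 in WT replicate 1. Per 1000 CPM of extraembryonic ectoderm markers Furin did not overlap (2.76 and 7.20 in WT, 10.2 and 21.5 in KO), and Pcsk6 was lower in both KO embryos (31.2 and 27.7 against 64.7 and 40.3). Per 1000 CPM of ectoplacental cone and giant cell markers Furin overlapped (3.78 and 7.06 in WT, 4.66 and 10.6 in KO). In CPM alone the groups overlapped for Pcsk6. These levels too were computed after the values were seen, so a separation among them is little support for a difference. The part of these tissues in the Furin values was not tested. Maternal decidua markers, 6 genes, summed to 15.2 and 23.3 in WT and 2.55 and 1.18 in KO (Hoxa10, Col1a2, Prl8a2 and Hoxa11 were at 0 in at least 1 library), and the 5 parietal endoderm markers to 229 and 755 in WT and 311 and 357 in KO.

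**Figure D5:**
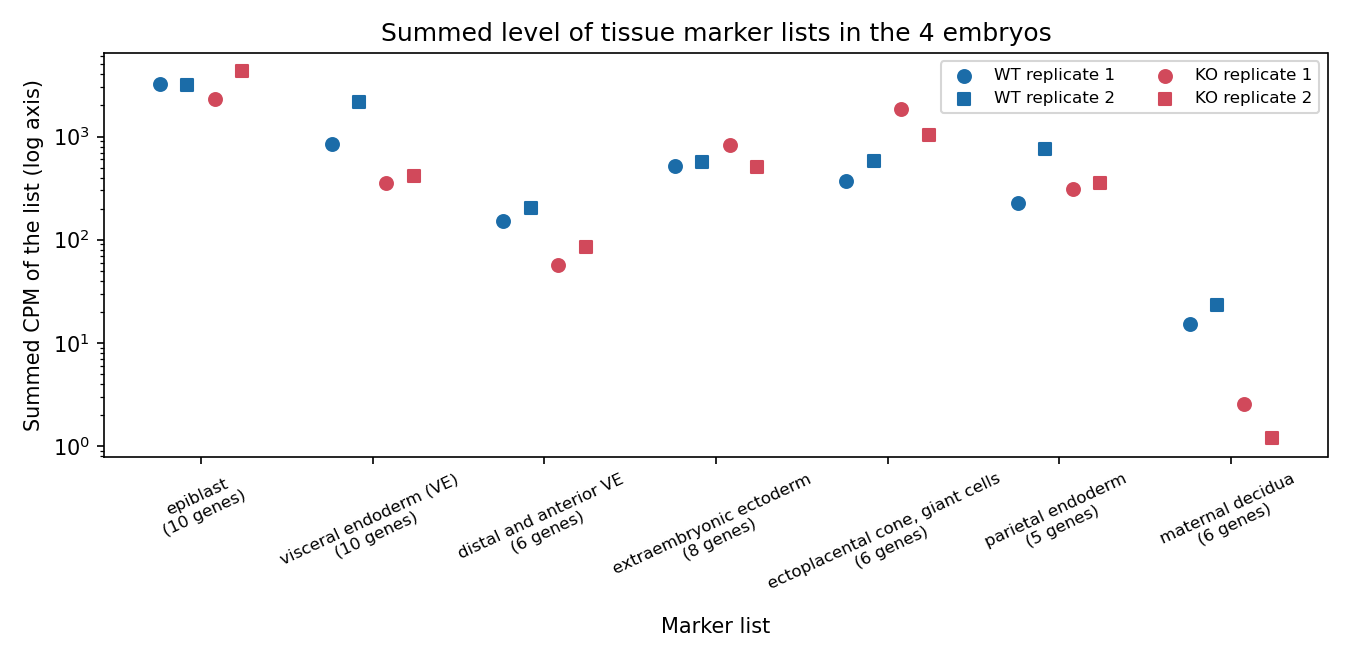
Summed CPM (log axis) of 7 tissue marker lists in each embryo, circles for replicate 1, squares for replicate 2, WT in blue and KO in red. Both KO embryos lie below both WT embryos for visceral endoderm (352 and 412 against 850.2 and 2145) and above them for ectoplacental cone and giant cells (1833 and 1039 against 374 and 575), while the epiblast sums of the KO embryos lie on either side of WT.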

How the data were processed

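Each of the 4 libraries was made from polyadenylated RNA of 1 embryo, amplified by the Smart-Seq v4 method, with 150-base paired reads per the labels' protocols. The authors deposited raw read counts per gene, as whole numbers. TopHat, Cufflinks and mm10 are named, per the submitters' processing notes. Not given in the sources used here were the counting program, its strand setting and its annotation. The method marks no strand, so reads from genes that overlap on opposite strands cannot be told apart there. How such reads were counted is not known. Of 47885 rows, 46574 matched GENCODE M21, which gave symbols, lengths and positions. Gdf1, on the pathway list, was not analysed here, and 1 other gene of that list is not reported here and is in none of its counts.

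The main fit was made in R 4.3.3 by edgeR 4.0.16 on all 4 embryos, with TMM scaling and robust quasi-likelihood F tests after filterByExpr (a minimum count of 10 and a minimum total of 15). The SE is the absolute log2 fold change over the square root of F, and the 95% interval uses the t distribution with edgeR's degrees of freedom. DESeq2 1.42.0, limma-voom (limma 3.58.1), other scalings and filters, a replicate block and each library left out were alternatives. The tests were first tried on data simulated from these libraries. With 2 embryos per group the p-values reflect only how these 4 embryos vary. Promoter windows are from RefSeq (GRCm38.p6), of which 6 of the 10 genes were matched. Ratios, sums of genes and levels per marker list were computed after the values were seen. The genes, the pathway list and the markers were chosen with earlier results of these data known. The rule for named genes took all 10 genes, every gene of the pathway list but these, the 5 genes nearest to Nodal, and Mettl14.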

Additional observations from a re-analysis of the deposited data

How the results depend on the processing

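None of the 10 genes was called under any of the 12 alternatives, and 5 of them (Furin, Gdf3, Pcsk6, Acvr1b and Acvr2b) kept their sign in all 12. For Furin, Acvr1b and Acvr2b the groups did not overlap, while for Gdf3 and Pcsk6 they did. All 12 settings reuse the same embryos, so a kept sign is little further support for any of these 5 genes. Over all genes the calls, 0 in each direction, became 150 higher and 90 lower with DESeq2, 157 and 101 with no low-count filter, 52 and 19 with the replicate block, 29 and 11 when libraries were scaled to epiblast markers, and 14 to 133 higher and 1 to 209 lower with 1 library left out. Other pathway genes called lower numbered 2 with DESeq2, 3 with no low-count filter (Cer1 in addition to Lhx1 and Cyp26a1) and 0 to 2 with 1 library left out. The median of the 10 genes ran from -0.071 to 0.67 and that of the other pathway genes from -0.33 to -0.043 with 1 library left out, and the latter was 0.054 with epiblast scaling. A lone library in a group was assumed to vary like the other group. With 1 library left out, log2 fold changes changed sign for Nodal (-0.014 to 1.01), Tdgf1 (-0.39 to 0.21), Lefty2 (-0.042 to 2.06), Smad2 (-0.11 to 0.82), Foxh1 (-1.04 to 0.83), Lefty1 (-0.11 to 0.69), Acvr2a (-0.83 to 0.26), Tgfbr1 (-0.50 to 0.45), Smad4 (-0.31 to 0.26), Smad7 (-1.13 to 0.95), Drap1 (-0.16 to 0.88), Trim33 (-0.59 to 0.54), Nedd4l (-0.33 to 0.68), Tgif2 (-0.58 to 0.20), Pcsk7 (-0.32 to 1.48), Eomes (-0.089 to 0.62) and Mixl1 (-0.36 to 0.99). Foxh1 was -0.086 with limma-voom and -0.11 with the replicate block, Smad7 -0.15 and -0.11. With epiblast scaling Smad4 was 0.0064 and Trim33 0.10, while the median of all genes moved by 0.113 to 0.078. It moved by 0.108 without WT replicate 1. By length of the longest transcript, Furin ranked 9 and Acvr1b 10 in KO. The cause was not tested. Nothing in the labels ties equal replicate numbers to a common litter or day. The difference between the WT replicates correlated at 0.329 with that between the KO replicates over 15563 genes, and the block called none of the 10 genes (Furin 1.99, adjusted p = 0.178).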
